A study of Rattus norvegicus with 8 samples.

Results

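The transcripts of the 2 corticosteroid receptors, Nr3c1 and Nr3c2, and of 2 genes that these receptors induce, Sgk1 and Fkbp5, were followed in the hippocampus of aged rats. These 4 genes were found by their Ensembl gene IDs among the 26405 IDs of the count table, and all 4 were among the 14522 IDs abundant enough to be tested. Nr3c1 is ENSRNOG00000014096, Nr3c2 is ENSRNOG00000034007, Sgk1 is ENSRNOG00000011815 and Fkbp5 is ENSRNOG00000022523. RNA from the right hippocampus of 8 female Sprague-Dawley rats, all 28 months old, was sequenced with 1 library per rat. All 8 rats had an adenoviral vector injected into the cerebral ventricles. The IGF1 group comprised 4 rats whose vector expressed rat insulin-like growth factor I (IGF-I), a peptide that supports the survival and growth of neural cells. In the 4 control rats, the DsRed group, it was the placebo vector, named for the red fluorescent protein DsRed. The sources used here do not give the promoter that drove each insert or the time between injection and dissection, and no rat without a vector was analysed here.

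Corticosterone, the main glucocorticoid of the rat, acts in the brain through a pair of nuclear receptors. The mineralocorticoid receptor, encoded by Nr3c2, binds it with high affinity, is largely occupied at resting hormone levels and is expressed strongly in the hippocampus compared with most brain regions. The glucocorticoid receptor, encoded by Nr3c1, binds with lower affinity and is engaged when hormone rises with stress or the daily peak. Both receptors wait in the cytoplasm in complexes with the chaperone Hsp90, enter the nucleus after binding hormone and recognise the same palindromic DNA element. Sgk1 encodes serum and glucocorticoid regulated kinase, which acts downstream of phosphoinositide 3-kinase, a pathway that IGF-I also engages. Fkbp5 encodes FKBP51, an Hsp90 co-chaperone that lowers the hormone affinity of the glucocorticoid receptor, and its induction by that receptor forms a short negative feedback loop.

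Counts per gene pool every transcript of that gene, and the annotated start sites of a gene can differ in the sequence before them. The use of each start site was not measured. RefSeq's promoter table (rat build GRCr8) matched 3 of the 4 genes and held 6 annotated start sites for them, 3 for Sgk1, 2 for Nr3c1 and 1 for Fkbp5. The following lines give the 150 bases before 4 of these start sites, shown to compare the receptor gene with the start regions of both target genes. Capitals mark a TATA box (TATAAA, read in the direction of transcription) in Sgk1. In the other genes they mark GC boxes (GGGCGG, either strand, which may overlap). GC boxes in the Sgk1 stretches were left unmarked.
Sgk1, start site nearest the 3′ end, chr1:24804832-24804981, minus strand: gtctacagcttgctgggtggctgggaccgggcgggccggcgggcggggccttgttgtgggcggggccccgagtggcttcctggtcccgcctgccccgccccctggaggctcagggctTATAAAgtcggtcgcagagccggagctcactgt
Sgk1, start site farthest upstream of the 3 listed, chr1:24807232-24807381, minus strand: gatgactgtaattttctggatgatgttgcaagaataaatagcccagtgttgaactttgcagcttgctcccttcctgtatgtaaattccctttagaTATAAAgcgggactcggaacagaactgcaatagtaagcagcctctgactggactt
Fkbp5, chr20:6543556-6543705, minus strand: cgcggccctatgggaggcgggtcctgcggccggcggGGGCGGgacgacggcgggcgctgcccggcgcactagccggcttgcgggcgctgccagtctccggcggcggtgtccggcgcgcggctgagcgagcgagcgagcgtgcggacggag
Nr3c1, start site nearest the 3′ end, chr18:31613440-31613589, minus strand: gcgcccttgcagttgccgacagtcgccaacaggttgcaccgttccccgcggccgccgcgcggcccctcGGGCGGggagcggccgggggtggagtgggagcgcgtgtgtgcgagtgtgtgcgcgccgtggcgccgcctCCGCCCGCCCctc
The stretch before the upstream Sgk1 start site had 42.0% G and C, with the TATA box beginning 55 bases before the start. The stretch before the Sgk1 start site nearest the 3′ end had 72.0%, with the TATA box at 33 bases. Those shown for Fkbp5 and Nr3c1 had 81.3% and 78.7%. The start sites left out were the middle one of Sgk1 and the upstream one of Nr3c1. Their 150 bases had 56.0% and 74.7%, with 0 matches of the motif marked for the same gene. A single arm of the receptors' palindromic response element, AGAACA, was searched on both strands of the whole 300-base windows, which run from 250 bases before the start to 50 after it. It matched 0 of the 6 windows of these genes and 20.7% of all 33469 windows in the table. TATAAA occurred in 2 of the 6 windows, both of Sgk1, against 8.80% of all windows. GGGCGG occurred in 5 of the 6 against 33.1%. The window of the Sgk1 start site nearest the 3′ end held 4 GGGCGG matches, as did those shown for Fkbp5 and Nr3c1. These matches describe letters in short windows; the receptor binding sites best known for Fkbp5 lie in its introns, outside them.

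Libraries held between 16347636 and 27377086 gene reads. The 4 genes were covered by 1212 to 6551 reads in every library, which puts the counting error of a single value between 1.24% and 2.87%. IGF1 replicate 1 stood apart from the other libraries, with a mean Spearman correlation across genes of 0.986 with the other 7, against 0.991 to 0.994 for the rest. It was the deepest library and had the largest share of reads outside genes, 32.9% against 30.7% to 32.2%, and the part of these in the values that follow was not tested. Differences that this library carries are therefore given with and without it. The genes of the cell type marker lists were not analysed here, since the files do not pair Ensembl IDs with symbols. In whole tissue, fewer cells of a type and less RNA per cell cannot be told apart.

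No difference between the groups passed the test for any of the 4 transcripts. The quasi-likelihood test of edgeR was run on all 14522 IDs, with p-values adjusted over all of them by the Benjamini-Hochberg method. Of the 4 genes 0 passed an adjusted p of 0.05, and 0% of all IDs did. DESeq2 called 0 of the 4 and 0.0827% of all IDs, edgeR's likelihood ratio test 0 and 0.0757%, and limma voom 0 and 0%. At an unadjusted p under 0.05 the quasi-likelihood test listed 1 of the 4, Fkbp5, against 6.6% of all IDs. The groups overlapped for all 4 genes, while they did not for 4.71% of all IDs. The text below gives levels as CPM, read counts per library size, scaled by trimmed mean of M values (TMM) in edgeR, and differences as log2 fold changes of IGF1 over DsRed.

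**Figure D1:**
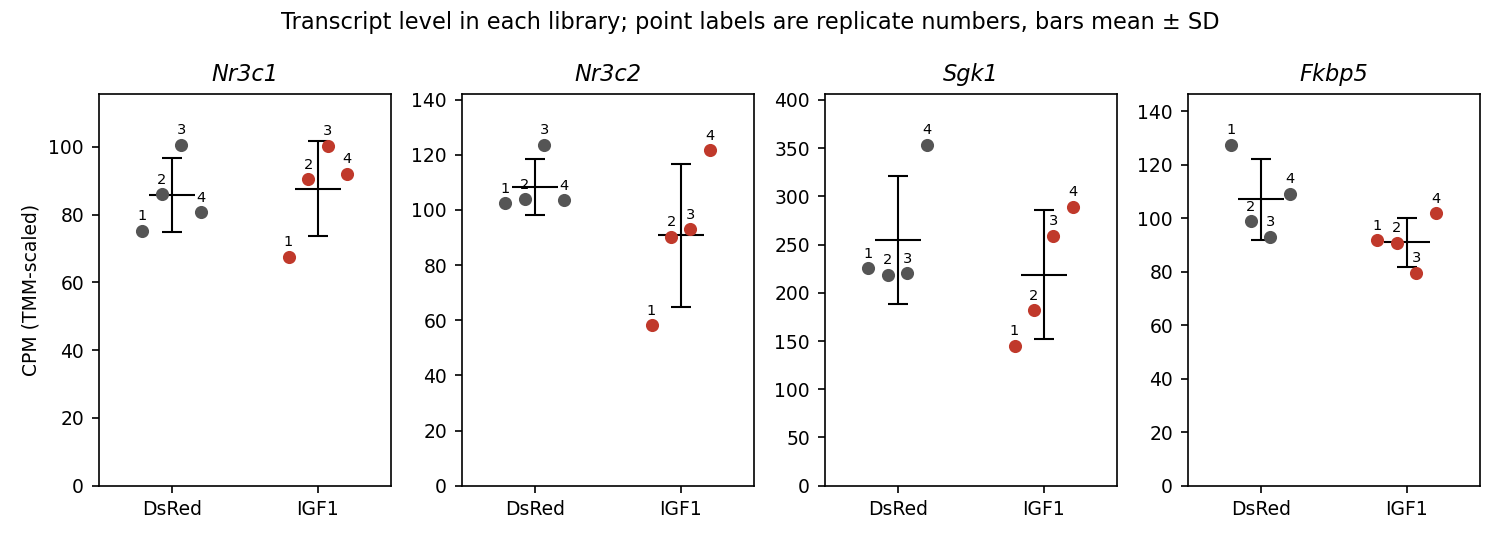
CPM (vertical axes, each starting at 0) of the 4 transcripts in each library, by group, with replicate numbers beside the points and bars for mean ± SD (n = 4). The groups overlap in every panel, and IGF1 replicate 1 is the lowest of the 8 libraries for Nr3c1, Nr3c2 and Sgk1.

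The glucocorticoid receptor transcript lay at nearly the same mean level in both groups. Nr3c1 measured 67.5, 90.5, 100.3 and 92.1 CPM in IGF1 replicates 1 to 4. In DsRed replicates 1 to 4 it measured 75.3, 86.0, 101 and 80.7 CPM. IGF1 replicate 1 was the lowest and DsRed replicate 3 the highest of the 8, and the other 3 IGF1 libraries lay inside the upper part of the DsRed range. The mean was 87.6 ± 14.1 CPM with the IGF-I vector and 85.7 ± 10.9 CPM with the placebo vector (SD, n = 4 each). The log2 fold change was 0.03 (SE 0.12), with an edgeR adjusted p of 0.966. Its 95% interval ran from -0.25 to 0.31, a change of -15.9% to 23.8%. An exact two-sided permutation test of the mean log2 CPM gave p = 0.857, where 4 libraries against 4 allow a smallest p of 0.0286. Without IGF1 replicate 1 the mean of the other 3 was 94.3 ± 5.27 CPM (SD, n = 3) and the log2 fold change 0.14, with an edgeR adjusted p of 0.829. The sign turned with libraries scaled by total reads alone, at -0.00062, and without IGF1 replicate 3 or DsRed replicate 1, at -0.04 and -0.03, so no direction is given for this gene.

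The mineralocorticoid receptor transcript had a lower mean in the IGF1 group, most of it from a single rat. Nr3c2 measured 58.1, 90.2, 93.0 and 122 CPM in IGF1 replicates 1 to 4. In DsRed replicates 1 to 4 it measured 102, 104, 124 and 104 CPM. In 3 of the 4 IGF1 libraries the level lay below the lowest DsRed library, but IGF1 replicate 4 was the highest of its group and above 3 of the DsRed libraries. Means were 90.7 ± 26.0 CPM and 108 ± 10.2 CPM (SD, n = 4 each). The log2 fold change was -0.26 (SE 0.18), with a 95% interval of -0.66 to 0.14, or -36.9% to 10.5%, and an edgeR adjusted p of 0.766. The exact two-sided permutation p was 0.286. Without IGF1 replicate 1 the log2 fold change was -0.09, and without IGF1 replicate 4 it was -0.43, with unadjusted p of 0.404 and 0.0221 in edgeR and adjusted p of 0.909 and 0.503.

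Read within each library, the balance of the receptor transcripts needs no scaling between libraries. The ratio of Nr3c2 to Nr3c1 reads was 0.860, 0.997, 0.927 and 1.32 in IGF1 replicates 1 to 4. It was 1.36, 1.21, 1.23 and 1.28 in DsRed replicates 1 to 4. The DsRed rats lay close together, and 3 of the 4 IGF1 rats lay below all of them, with IGF1 replicate 4 inside the DsRed range. The mean ratio was 1.03 ± 0.204 with the IGF-I vector and 1.27 ± 0.0684 with the placebo vector (SD, n = 4 each). The mean log2 ratio differed by -0.33 (IGF1 minus DsRed), and the two-sided exact permutation test gave p = 0.114, or 0.229 after adjustment over the 2 ratios compared. Without IGF1 replicate 1 the mean ratio of the other 3 was 1.08 ± 0.210 (SD, n = 3) and the log2 difference -0.25. Leaving out each library in turn gave -0.45 to -0.25 with exact permutation p of 0.0571 to 0.229. These are ratios of reads and take no account of transcript length, so they do not say which receptor transcript is the more abundant in molecules.

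**Figure D2:**
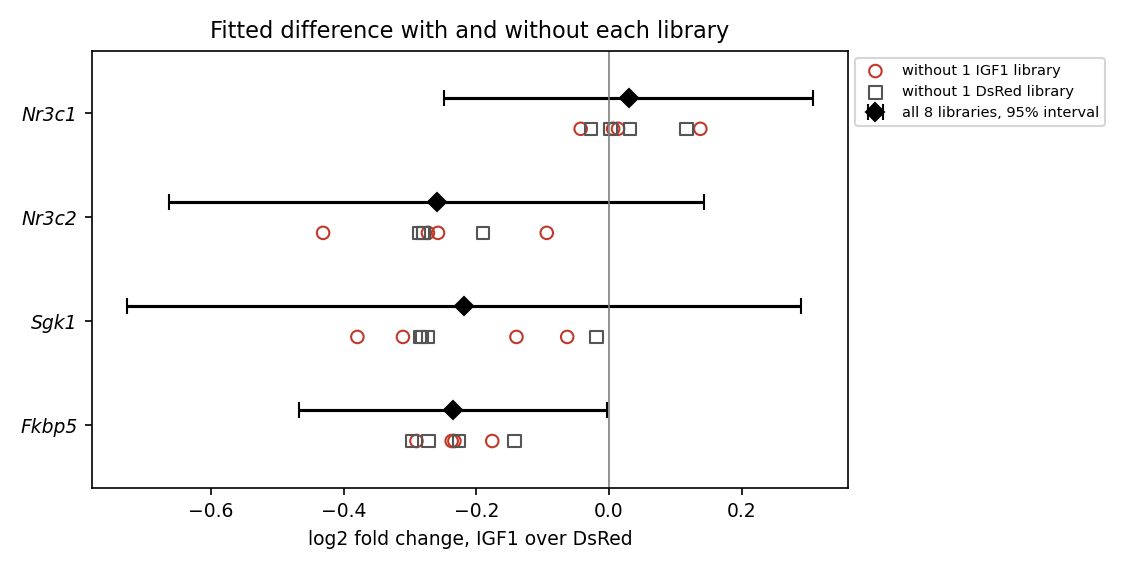
Log2 fold change of IGF1 over DsRed (horizontal axis) for the 4 transcripts. Black diamonds with bars are the fit to all 8 libraries with its 95% interval, and open symbols are fits without 1 library; Sgk1 moves from -0.22 to -0.02 without DsRed replicate 4.

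The kinase transcript Sgk1 had the widest spread of the 4 between rats of the same group. It measured 145, 182, 259 and 289 CPM in IGF1 replicates 1 to 4. In DsRed replicates 1 to 4 it measured 225, 219, 220.4 and 354 CPM. Of the DsRed libraries 3 were nearly equal and replicate 4 was far above them, while the IGF1 libraries were spread on both sides of those 3. Means were 219 ± 66.7 CPM and 255 ± 66.1 CPM (SD, n = 4 each). The log2 fold change was -0.22 (SE 0.23), with a 95% interval of -0.73 to 0.29, or -39.6% to 22.3%, and an edgeR adjusted p of 0.830. The exact two-sided permutation p was 0.429. The fitted difference was -0.06 without IGF1 replicate 1 and -0.02 without DsRed replicate 4, with edgeR adjusted p of 0.976 and 0.995.

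The co-chaperone transcript Fkbp5 came nearest to a difference. It measured 91.7, 90.8, 79.6 and 102 CPM in IGF1 replicates 1 to 4. In DsRed replicates 1 to 4 it measured 128, 98.9, 93.0 and 109 CPM. In 3 of the 4 IGF1 libraries the level lay below every DsRed library, and 2 DsRed libraries, replicates 1 and 4, lay above every IGF1 library. Means were 91.0 ± 9.10 CPM and 107 ± 15.1 CPM (SD, n = 4 each). The log2 fold change was -0.24 (SE 0.10), with a 95% interval of -0.47 to -0.0030, or -27.7% to -0.206%. In edgeR its unadjusted p was 0.0476 and its adjusted p 0.743, and 6.23% of the IDs tested had a smaller p. DESeq2 gave an unadjusted p of 0.0353 and limma voom 0.0517, with adjusted p of 0.864 and 0.708. The exact two-sided permutation p was 0.143. Without IGF1 replicate 1 the log2 fold change stayed at -0.24, and it was -0.14 without DsRed replicate 1, which held the highest level, with an edgeR unadjusted p of 0.141 and adjusted p of 0.826.

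The ratio of Sgk1 to Fkbp5 reads, which compares the target transcripts within each library, ranged from 1.58 to 3.26 in the IGF1 group and from 1.77 to 3.24 in the DsRed group. Its means were 2.42 ± 0.763 and 2.40 ± 0.617 (SD, n = 4 each), and the exact two-sided permutation p was 0.971, also after adjustment over the 2 ratios. The fitted differences of the target transcripts were -0.22 and -0.24, and the sign of the difference in their ratio turned when IGF1 replicate 1, IGF1 replicate 2 or DsRed replicate 4 was left out. The median absolute log2 fold change over all 14522 IDs was 0.08. With all 8 libraries the fitted size for Fkbp5 exceeded that of 86.1% of them, for Nr3c2 88.3%, for Sgk1 84.2% and for Nr3c1 20.2%. Without IGF1 replicate 1 the log2 fold changes were -0.24 for Fkbp5, -0.09 for Nr3c2, -0.06 for Sgk1 and 0.14 for Nr3c1. The shares were not computed for that fit.

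Between rats of the same group, Sgk1, Nr3c2 and Nr3c1 varied more than the 90th percentile of IDs of like level. With all 8 libraries Fkbp5 lay inside the 10th to 90th percentile range, a place that changed without IGF1 replicate 1, as given below. With 1 library per rat, spread between rats and spread between library preparations cannot be told apart. The within-group SD of log2 CPM was 0.40 for Sgk1, 0.33 for Nr3c2, 0.22 for Nr3c1 and 0.17 for Fkbp5. IDs with a mean log2 CPM within 0.5 of each gene had a median SD of 0.09, counted over 677 IDs for Sgk1 and 1621 to 1814 for the other genes. The SD was 4.59 times the median of IDs of like level for Sgk1, 3.81 times for Nr3c2, 2.53 times for Nr3c1 and 2.04 times for Fkbp5. Of the IDs of like level, 99.0% had a smaller SD than Sgk1, 97.8% than Nr3c2, 92.7% than Nr3c1 and 87.3% than Fkbp5. These percentages describe the 8 libraries and carry no test.

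**Figure D3:**
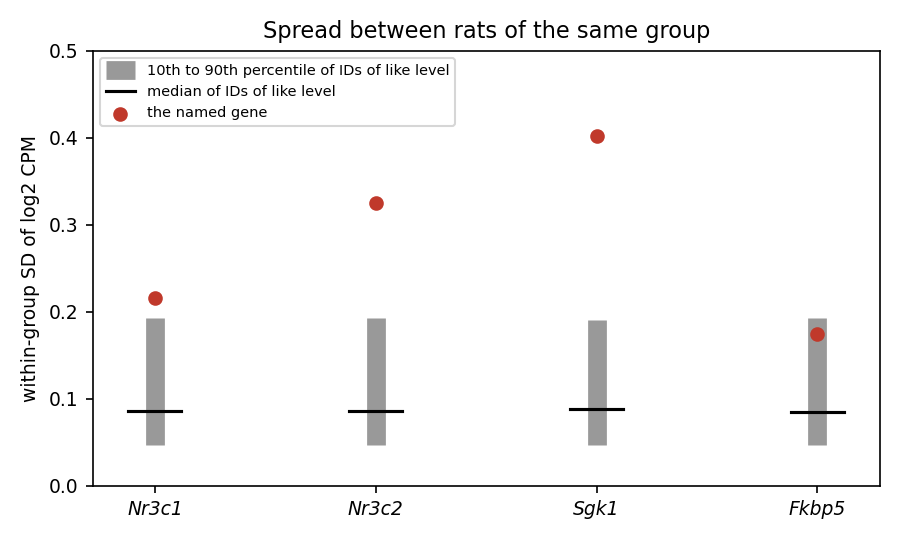
Within-group SD of log2 CPM (vertical axis) of each transcript (red points), beside the 10th to 90th percentile (grey) and the median (black line) of IDs with a mean log2 CPM within 0.5 of it. Sgk1, Nr3c2 and Nr3c1 lie above the grey bars and Fkbp5, at 0.17, near the top of its bar.

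Leaving out IGF1 replicate 1 lowered the SD of Nr3c2 to 0.18 and of Nr3c1 to 0.15. Both still exceeded most IDs of like level, 96.3% and 91.6%. Without it the SD of Fkbp5 was higher, at 0.19, above that of 96.7% of IDs of like level. The SD of Sgk1 was 0.34 without that library and 0.36 without DsRed replicate 4. Over the 8 ways to leave out a library, the share of IDs of like level with a smaller SD was 98.3% to 99.4% for Sgk1 and 95.9% to 98.5% for Nr3c2. It was 90.2% to 94.7% for Nr3c1 and 78.7% to 96.7% for Fkbp5.

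The 4 transcripts did not move as a unit in every rat. Against the median of the 8 libraries, IGF1 replicate 1 stood at 56.4% for Nr3c2, 65.2% for Sgk1 and 76.5% for Nr3c1, the lowest library for these 3 genes, but at 95.6% for Fkbp5. DsRed replicate 4 stood at 159% for Sgk1 and at 91.4% for Nr3c1. DsRed replicate 1, at 133% for Fkbp5, stood at 85.3% for Nr3c1. IGF1 replicate 3 showed the reverse arrangement, with the lowest Fkbp5 level of the 8, at 82.9%, beside 114% for Nr3c1. In IGF1 replicate 4, by contrast, all 4 stood above the median, at 104% for Nr3c1, 118% for Nr3c2, 130% for Sgk1 and 106% for Fkbp5.

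**Figure D4:**
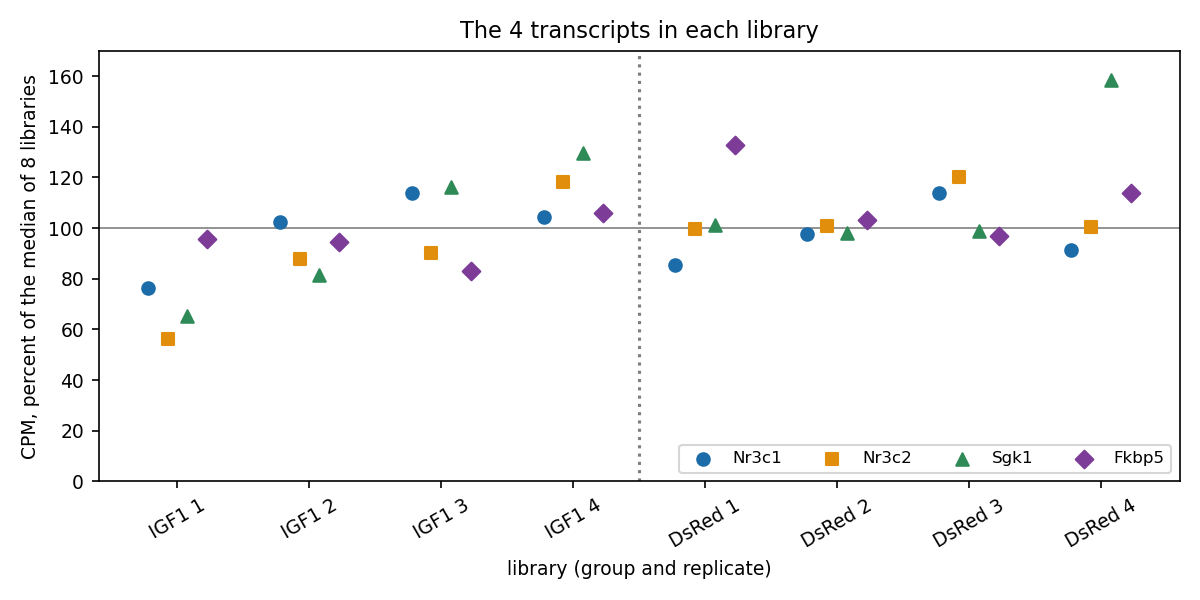
CPM of each transcript as percent of its median over the 8 libraries (vertical axis, starting at 0), by library (horizontal axis), with IGF1 to the left and DsRed to the right of the dotted line. Nr3c2, Sgk1 and Nr3c1 are lowest in IGF1 replicate 1, and Sgk1 is highest in DsRed replicate 4 at 159%.

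Over the 8 libraries none of the 6 pairs of transcripts passed an adjusted p of 0.05 in exact permutation tests of the correlation of log2 CPM. Nr3c2 and Sgk1 had a Pearson r of 0.692 (exact permutation p = 0.0615, adjusted over 6 pairs 0.184) and a Spearman rho of 0.476 (0.243 and 0.392). The receptors Nr3c1 and Nr3c2 had an r of 0.676 (exact permutation p = 0.0588, adjusted 0.184) and a rho of 0.548 (0.171 and 0.392). With the 2 libraries most distant from the first gene's median left out, r was 0.521 for Nr3c2 and Sgk1 and 0.165 for the receptors. The libraries left out were IGF1 replicate 1 and DsRed replicate 3 for the former pair, and IGF1 replicate 1 and DsRed replicate 1 for the receptors. Without IGF1 replicate 1 alone, r was 0.278 and 0.178, so both correlations rest on that library; without any other single library r was 0.646 to 0.818 for Nr3c2 and Sgk1 and 0.602 to 0.798 for the receptors. With deviations from the group means in place of levels, again over all 8 libraries, r was 0.646 and 0.804.

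Nr3c1 and Fkbp5, the receptor and its co-chaperone, had a negative correlation that did not pass, with an r of -0.491 (exact permutation p = 0.216, adjusted 0.432) and a rho of -0.405 (0.327 and 0.392). IGF1 replicate 1 was low in Nr3c1 and near the median in Fkbp5. Without it r was -0.894 over 7 libraries, with an exact permutation p of 0.00655, or 0.0393 after adjustment over the 6 pairs. The Spearman rho was -0.750 over the same 7 libraries, with an exact permutation p of 0.0663 and 0.398 after adjustment. Without IGF1 replicate 1 and DsRed replicate 1, the 2 libraries most distant from the Nr3c1 median, r was -0.791. The adjusted Pearson test passed in 1 of the 60 fits in which another scaling was used or a library was left out, which is this fit.

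**Figure D5:**
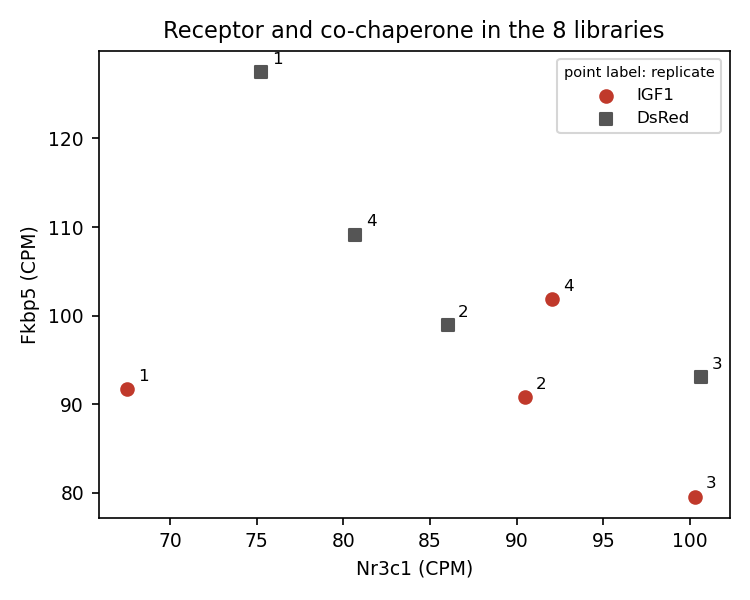
Nr3c1 (horizontal axis, CPM) against Fkbp5 (vertical axis, CPM) in the 8 libraries, circles for IGF1 and squares for DsRed, with replicate numbers. Both axes start above 0. IGF1 replicate 1, at 67.5 and 91.7 CPM, has the lowest Nr3c1 level, while DsRed replicate 1, the next lowest at 75.3 CPM, has the highest Fkbp5 level at 128 CPM.

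The remaining 3 pairs did not pass either. For Nr3c1 and Sgk1 r was 0.382 and rho 0.262, with exact permutation p of 0.354 and 0.536 and adjusted p of 0.511 and 0.536. For Nr3c2 and Fkbp5 r was 0.284 and rho 0.452, with exact permutation p of 0.461 and 0.267 and adjusted p of 0.511 and 0.392. For the target genes Sgk1 and Fkbp5 r was 0.279 and rho 0.476, with exact permutation p of 0.511 and 0.243 and adjusted p of 0.511 and 0.392. With the 2 libraries most distant from the first gene's median left out, r was -0.391, 0.454 and -0.014 in these 3 pairs. Over the 7 libraries other than IGF1 replicate 1, r was -0.169, 0.242 and 0.203, so the sign for Nr3c1 and Sgk1 turned.

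For each gene the most similar IDs were sought, and the other 3 of the 4 genes were ranked by the same measure. Among the 10040 other IDs whose log2 CPM averaged 3 or more, the ID with the highest Pearson r over the 8 libraries was ENSRNOG00000002781 for Nr3c1, at 0.983, with a log2 fold change of 0.0047. For Nr3c2 it was ENSRNOG00000001982, at 0.996 and a log2 fold change of -0.19, and for Sgk1 ENSRNOG00000049653, at 0.980 and -0.23. The closest ID for Fkbp5 reached 0.966. By the same measure Nr3c2 had rank 766 among the IDs most like Nr3c1, and 1686 in the reverse direction. Sgk1 had rank 1613 among those most like Nr3c2, and Nr3c2 had rank 709 among those most like Sgk1. Fkbp5 had rank 3496 among those most like Sgk1 and rank 8171 among those most like Nr3c1, with 2874 and 8834 in the reverse direction. The highest r was picked from 10040 values over 8 libraries, so its lead over 3 named genes says little. It describes these libraries and carries no p. All these values and ranks include IGF1 replicate 1, on which the correlations of Nr3c2 with Nr3c1 and with Sgk1 rest. They were not computed without it.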

How the data were processed

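Per the labels' protocols, total RNA was made into libraries with an Illumina TruSeq kit. CASAVA 1.8.2, STAR, HTSeq and edgeR are named in the submitters' processing notes without the role of each, and the sources used here give no genome build, annotation or strand setting. The authors deposited whole-number read counts per Ensembl gene ID; 3 summary rows, the largest holding 30.7% to 32.9% of the tabulated reads, were left out. Their other deposited table, a linear signal in CPM, served for an alternative with a pseudocount of 1 or 0.1. Without a stated strand setting, reads of overlapping transcripts cannot be told apart; RefSeq lists 3 other genes overlapping Nr3c2, 1 overlapping Fkbp5 and 0 overlapping Nr3c1 and Sgk1.

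Sample titles gave the groups and replicate numbers, and the descriptions tied each column to a rat. With edgeR 4.0.16 in R 4.3.3, counts were filtered by filterByExpr (minimum count 10, minimum total 15), scaled by TMM and tested with glmQLFit and glmQLFTest, group as the only term, two-sided. Benjamini-Hochberg adjustment covered all IDs at a threshold of 0.05. Log2 CPM used a prior count of 2, and read ratios had 0.5 added to each count. Alternatives were DESeq2 1.42.0, limma 3.58.1, other scalings and filters, a replicate block and each library left out. The tests were run on simulated data first. No library was a repeat of another, as chi-square over degrees of freedom was at least 5.74 in each of the 28 pairs (IDs with 20 reads or more).

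The 4 genes, the other lists and the tests were chosen with earlier results of these data known. The symbols of the 4 IDs came with that list and were not checked against the files. The rule named the 4 genes, lists of related genes, and the ID most like each gene, limited to 2 IDs per direction of fold change. The lists of chaperones, steroid enzymes, induced genes, kinase relatives and cell type markers were not analysed here, because 0 entries of the rat gene table carry an Ensembl ID. The spread without each library was added after seeing the data.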

Additional observations from a re-analysis of the deposited data

Results flagged for a closer look

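Levels of the 4 genes, the 2 read ratios and 3 library measures were searched for a library far from the rest of its group, 18 sets of 4 libraries in all, and in 3 the gap between the extreme library and its neighbour exceeded 0.829 of the range within the group. About 1 set in 20 does so by chance. Sgk1 in DsRed replicate 4 stood at 354 CPM, against 219 to 225 CPM in the other DsRed libraries. Nr3c2 in DsRed replicate 3 stood at 124 CPM, against 102 to 104 CPM in the rest of its group, a small step beside 3 nearly equal values. The third is the mean Spearman correlation of IGF1 replicate 1 with the other libraries, 0.986 against 0.993 in the other IGF1 libraries. The cause of these was not tested.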

How the results depend on the processing

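Across 20 alternatives each, 0 of 80 fits of the 4 genes passed an adjusted p of 0.05, and the lowest was 0.503. Nr3c2, Sgk1 and Fkbp5 kept a negative log2 fold change in all 20; the sign of Nr3c1 turned in 3, with total gene counts at -0.00062, without IGF1 replicate 3 at -0.043 and without DsRed replicate 1 at -0.03. Leaving out 1 library gave -0.043 to 0.14 for Nr3c1, -0.43 to -0.09 for Nr3c2, -0.38 to -0.02 for Sgk1 and -0.30 to -0.14 for Fkbp5. Over all IDs, DESeq2 called 12 and edgeR's likelihood ratio test 11, none of them among the 4 genes, and leaving out 1 library gave 0 to 1. The log2 ratio of Sgk1 to Fkbp5 differed by -0.17 to 0.18 without 1 library. The correlation of Nr3c1 with Sgk1 was -0.169 to 0.660 and that with Fkbp5 -0.894 to -0.309 without 1 library, and Nr3c2 with Fkbp5 had r = -0.0025 for deviations from group means. The cause was not tested.

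In the fit with a replicate block, 0 IDs were called. The 4 log2 fold changes were 0.03, -0.30, -0.24 and -0.23 in the order Nr3c1, Nr3c2, Sgk1 and Fkbp5. The edgeR adjusted p was 0.936 for the first and 0.738 for the rest. The SE was smaller than in the main fit for all 4, at 0.066, 0.151, 0.127 and 0.072 in the same order. For Fkbp5 the edgeR unadjusted p was 0.0153, the lowest of its 20 alternatives. Same-numbered libraries deviated together with correlations of 0.055, 0.126, 0.244 and 0.134 over IDs. Differently numbered libraries of the 2 groups had -0.3283 to 0.1496, so only replicate 3 stood above that range. The labels name separate rats, so the main fit did not treat the rats as pairs. Whether same-numbered libraries were processed together was not tested. With 4 rats per group, the width of the printed intervals limits what can be said of each gene.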
